A study of Drosophila melanogaster with 12 samples.

Results

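The 21991 rows of the m6A peak list of *Mettl16* mutant males were summarized per gene and set against input expression and gene length. A row is a region enriched in the m6A immunoprecipitate (IP) over the input, with the gene it was assigned to. The list named 12368 genes, of which 12337 were among the 21076 genes of the expression table. A gene was taken as expressed when it averaged at least 1 FPKM (fragments per kilobase of transcript, scaled to the number of mapped reads) over the 3 mutant inputs, which held for 12608 genes. Of these, 10721 had a listed peak and 1887 had none.

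N6-methyladenosine (m6A) is a methyl mark on adenosines inside RNA. In flies and mammals the Mettl3 and Mettl14 complex writes most of it on mRNA, YTH domain proteins bind it, and Mettl16 is a separate methyltransferase known in other species for methylating U6 snRNA and the S-adenosylmethionine synthetase mRNA. In MeRIP-seq, poly(A) RNA is fragmented, an antibody captures the fragments that carry m6A, and these are sequenced beside an input of the same fragmented RNA taken without capture, so a peak marks a stretch of RNA and not a single adenosine.

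Mutants were homozygous for *Mettl16* 1-9, a small frameshift deletion in the first exon of the gene, and controls were *w1118*. Both were whole adult males, pooled at about 50 per preparation, with 3 biological replicates per genotype and an IP and an input library from each. The mutant is 1 allele. Its 3 IP and 3 input libraries were used jointly to call peaks, and no spread between replicates can be given for a peak. *Mettl16*, listed under the symbol *CG7544*, had 0.430, 0.285 and 0.232 FPKM in the mutant inputs, against 0.971, 0.824 and 1.19 FPKM in the *w1118* inputs. The mutant inputs all lay below the *w1118* inputs, and the gene had no listed peak and fell under the minimum of 1 FPKM. The inputs held the RNA of many tissues: all 51 spermatocyte and spermatid genes, all 70 accessory gland and seminal fluid genes, all 33 sarcomere genes and all 37 neuronal adhesion genes listed here were expressed in the mutants. In such bulk samples, fewer cells of a type and less RNA per cell cannot be told apart. The 6 inputs held 5.32 to 6.48 aligned gigabases.

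The list itself was broad. The log2 enrichment of IP over input ran from 0.12 to 9.32, the largest P was 0.0490 and the largest FDR 0.269, and 20678 rows (94.0%) had an FDR under 0.05. The regions spanned a median of 268 bases from end to end, introns included, and 2888 of 21770 distinct regions (13.3%) spanned over 1000 bases. Of 21878 pairs of a region and a gene, 1453 (6.64%) met another peak of the same gene and 490 (2.24%) met a peak of another gene on the same strand. In all, 3355 (15.3%) met a peak of another gene on the opposite strand. What strand setting the peak caller used is not given in the sources used here, so the gene that carried such a signal cannot be told apart from its neighbour.

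Most expressed genes had a peak, and those without one were shorter and less expressed. A listed peak was present in 85.0% of expressed genes. The share was 83.8% when only rows with an FDR under 0.05 counted and 81.9% when only rows with a log2 enrichment of at least 1 counted. It fell to 72.1% when peaks that met an opposite-strand peak of another gene were left out.

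The median expressed gene with a peak had 10.5, 10.7 and 10.6 FPKM in the 3 mutant inputs, against 3.87, 4.06 and 4.06 FPKM for the median expressed gene without one. The 3 libraries gave nearly the same medians for each class. Genes with a peak spanned a median of 2456 bases of genome, against 1210 bases for genes without. Their longest transcripts had medians of 1845 and 1052 bases, with 4 against 2 exons and 2 against 1 annotated isoforms. The classes overlapped widely, since the 10th and 90th percentiles were 2.28 and 57.8 FPKM for genes with a peak, and 1.27 and 27.0 FPKM for genes without one. These are descriptions over genes, which are not replicates, and no test was made.

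**Figure D1:**
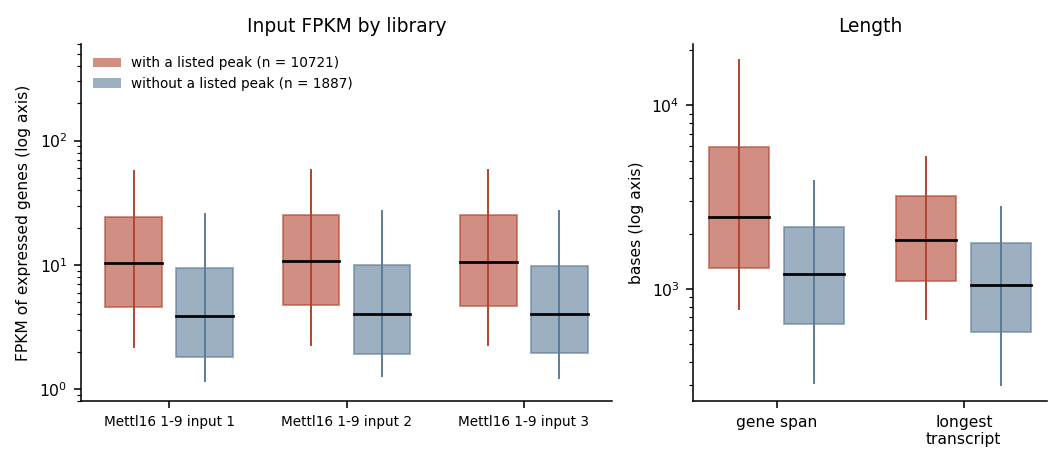
Left, FPKM of expressed genes in each of the 3 *Mettl16* mutant inputs, on a log axis, for the 10721 genes with a listed peak (red) and the 1887 without (blue). Right, the genomic span and the longest transcript of the same genes in bases, on a log axis. Lines mark medians, boxes the middle quartiles and whiskers the 10th and 90th percentiles. Genes with a peak have higher medians in all 3 libraries and for both lengths.

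Expression and length each moved with the share of genes that had a peak. Among genes at 1 to 2 FPKM, 63.0% had a peak, and the share was 77.7% at 2 to 5 FPKM, 86.9% at 5 to 10 FPKM and 94.6% at 50 to 100 FPKM. At 100 FPKM and over it was 89.6%. Below the minimum, 1567 of 6734 genes between 0 and 1 FPKM (23.3%) had a peak. By length the share ran from 48.0% of genes under 0.5 kb and 76.3% at 0.5 to 1 kb to 87.9% at 2 to 5 kb and 99.3% at 50 kb and over. Expression and length were nearly unrelated across the 12608 expressed genes, with a Spearman rho of -0.0015, and each trend was seen within classes of the other, apart from the drop at the highest FPKM.

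At 1 to 2 FPKM, 18.9% of 180 genes under 0.5 kb had a peak and 97.5% of 80 genes of 20 to 50 kb had one. Among genes under 0.5 kb, the share was 35.5% of 169 at 2 to 5 FPKM, 77.4% of 62 at 10 to 20 FPKM, 87.7% of 57 at 20 to 50 FPKM, 84.6% of 26 at 50 to 100 FPKM and 78.9% of 57 at 100 FPKM and over. Genes over 20 kb almost always had a peak, whatever their expression.

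**Figure D2:**
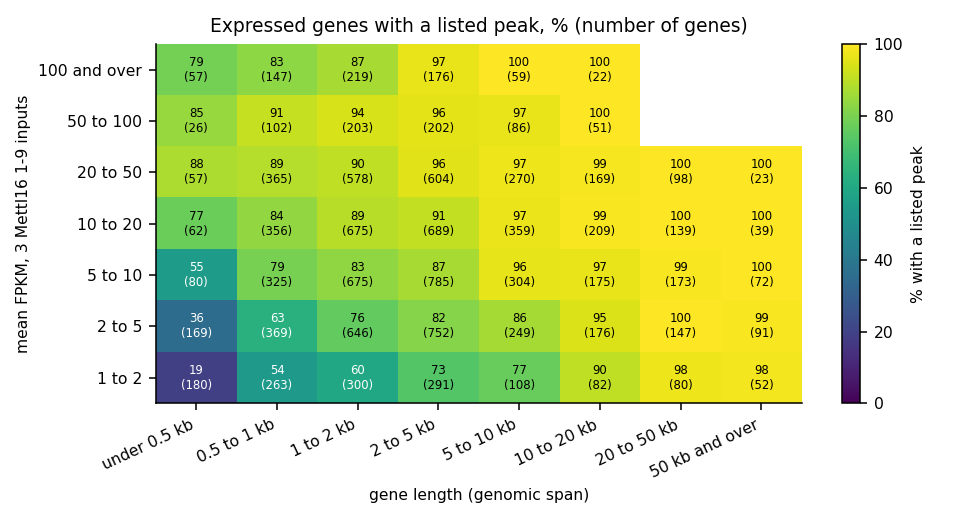
Share of expressed genes with a listed peak, in percent, by mean FPKM in the 3 mutant inputs (rows) and genomic span (columns), with the number of genes in parentheses. Classes under 20 genes are left blank. The share is lowest in short, weakly expressed genes (18.9% of 180) and close to complete in genes over 20 kb.

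The listed peaks of weakly expressed genes were the stronger ones. In genes of 1 to 2 FPKM, 4.32% of peaks had a log2 enrichment under 1, and the median peak stood at 2.52. In genes of 100 FPKM and over, 15.5% of peaks were under 1 and the median was 2.04. The part that depth played in the listing of a peak was not tested.

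The number of peaks per gene followed gene length far more than expression. Of the expressed genes, 6370 (50.5%) had 1 peak, 2428 (19.3%) had 2, 1923 (15.3%) had 3 or more and 54 had 10 or more. Across genes with a peak (n = 10721, all read from the same libraries) the Spearman rho of peaks per gene was 0.61 with length and -0.050 with FPKM. With genes without a peak counted as 0, the rho with FPKM turned to 0.13 over the 12608 expressed genes. With overlapping peaks of a gene counted once, the rho with length was 0.63. The mean number of peaks was 0.85 in genes of 0.5 to 1 kb, 2.04 in genes of 5 to 10 kb and 5.34 in genes of 50 kb and over.

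The 10 genes taken as having the most peaks were long, and the potassium channel gene *Sh* tied with the last of them. *sls*, which encodes the giant sarcomere protein Sallimus, had 30 peaks over 75931 bases and 23.4, 21.0 and 20.2 FPKM in the mutant inputs. The zinc finger factor gene *mamo* had 22 peaks and *Msp300*, a giant nesprin of muscle, had 20. *sif* had 19, and *lola*, *pros*, *mei-P26* and *Imp* had 18 each. *Hr3*, a nuclear hormone receptor gene, had 17 peaks at 1.95 FPKM, and *CG30069* had 16 at 17.5 FPKM. Counted with overlapping peaks merged, after the data were seen, *sif* had 11, *Imp* 14 and *Hr3* 7, and the other 7 kept their counts. The 30 peaks of *sls* were 24 in coding exons, 4 in 3′ UTRs, 1 in a 5′ UTR and 1 in an intron. In *mamo*, *sif*, *pros*, *mei-P26*, *Imp* and *Hr3* no peak was annotated to a coding exon.

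The strongest peak of a gene was stronger in long genes, whereas genes with a single peak showed little of this below 10 kb. The rho of the highest log2 enrichment with length was 0.38 over the 10721 genes with a peak. Over the 6370 genes with exactly 1 peak it was 0.021, and their median enrichment was 2.27 at 0.5 to 1 kb, 2.20 at 2 to 5 kb, 2.52 in the 141 of 10 to 20 kb and 3.24 in the 37 of 20 to 50 kb. With FPKM the rho was -0.069 over all genes with a peak and -0.030 over those with 1, and it turned to 0.10 with genes without a peak counted as 0.

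Within a gene, peaks differed widely. In the 2428 genes with 2 peaks the median range between them was 0.96 on the log2 scale, and in the 54 genes with 10 or more it was 3.60. The median gene of each class had its middle peak near the same level, 2.20 with 2 peaks and 2.40 with 10 or more, while the highest and lowest peaks moved apart. Among the 5 widest ranges in genes of at least 5 FPKM were those of *mbl*, a splicing regulator, from 0.73 to 7.14, *Slik*, a protein kinase, from 0.30 to 6.61, and *cpa*, a subunit of the actin capping protein, from 0.40 to 6.19.

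**Figure D3:**
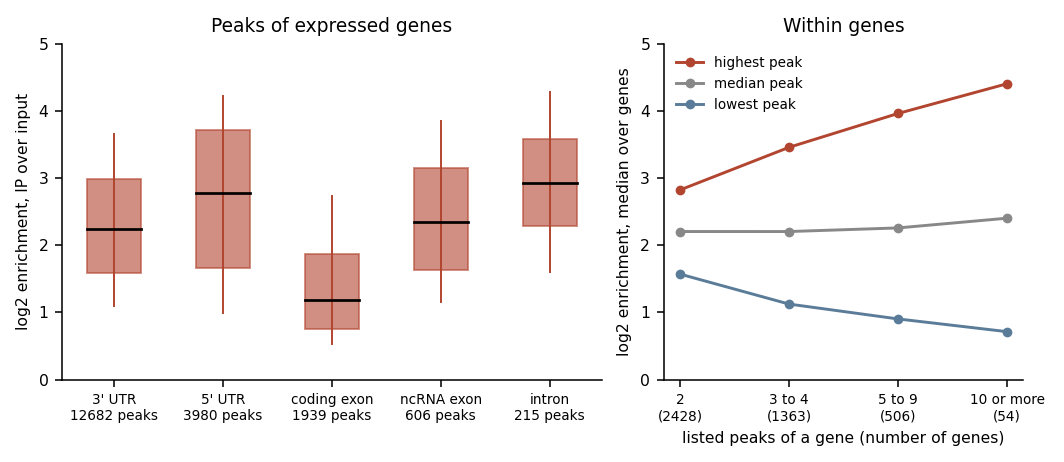
Left, log2 enrichment of IP over input for the peaks of expressed genes by annotation, with medians, quartiles and 10th to 90th percentiles. Right, the median over genes of the highest, the median and the lowest peak of a gene, by the number of its peaks, with the number of genes in parentheses. Coding exon peaks have the lowest median (1.19), and the highest and lowest peaks of a gene move apart as peaks increase.

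Peaks lay mostly in 3′ UTRs. A 3′ UTR peak was found in 91.0% of genes with a peak and a 5′ UTR peak in 28.7%. Coding exons held one in 12.8% of them, non-coding exons in 4.09% and introns in 1.33%. The most frequent combination was the 3′ UTR alone, in 6267 genes (58.5%), followed by 3′ and 5′ UTR in 2176 (20.3%), 3′ UTR and coding exon in 603 (5.62%), and all 3 of these in 509 (4.75%). A non-coding exon was the only place in 438 genes, the 5′ UTR in 227 and a coding exon in 202. Each region carries its annotation over its whole span, and 1251 of the 19510 peaks of expressed genes (6.41%) spanned more than the longest transcript of their gene. Of the 87 named genes with a peak, the strongest peak did so in 20, among them *ELOVL*, *Sh*, *Ten-a*, *fne*, *fru*, *fz2* and *Zasp52*.

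The combination moved with length. A 5′ UTR peak was present in 7.62% of genes with a peak at 1 to 2 kb, in 50.3% at 5 to 10 kb and in 89.2% at 20 kb and over, while the share with a 3′ UTR peak stayed between 82.9% and 95.5%. The median length was 1753 bases for genes with 3′ UTR peaks alone, 7971 bases for genes with peaks in both UTRs and 16241 bases for genes with peaks in both UTRs and coding exons.

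Coding exon peaks were the weakest class. The median log2 enrichment was 1.19 in coding exons, 2.25 in 3′ UTRs, 2.35 in non-coding exons, 2.78 in 5′ UTRs and 2.93 in introns. The same order of coding exon and UTR held within genes. Of 643 genes with exactly 1 peak in a coding exon and 1 in a 3′ UTR, the coding exon peak was higher in 104 (16.2%), with a median difference of -1.20 (coding exon minus 3′ UTR). Of 305 genes with 1 coding exon and 1 5′ UTR peak, the coding exon peak was higher in 68, with a median difference of -1.36.

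The UTRs did not order this way. Of 1514 genes with 1 peak in each UTR, the 5′ UTR peak was higher in 702 (46.4%) and the 3′ UTR peak in 807, with a median difference of -0.12 (5′ minus 3′). The 5′ UTR peak was higher by more than 1 in 373 genes and the 3′ UTR peak in 409. *Fib*, the gene of the box C/D methyltransferase Fibrillarin, had a 5′ UTR peak of 8.21 and a 3′ UTR peak of 2.57. *CG7059* and *Cbl*, a ubiquitin ligase gene, had their highest peaks at 6.50 and 6.48 in the same combination, and that of *CG7059* met a peak on the opposite strand.

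Other combinations had their own leaders among genes of at least 5 FPKM. *CG2871* had 5.90 and *CG17108* 5.38 with peaks in the 3′ UTR and a coding exon, and *CG8740* had 6.26 with peaks in both UTRs and a coding exon. With 5′ UTR peaks alone, *ELOVL*, a fatty acid elongase gene, had 4.56, *lama* 4.45 and *CG42637* 4.44, that of *CG42637* meeting a peak on the opposite strand. These 3 stood well below the strongest 3′ UTR peaks.

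Transcripts with 1 exon allow a position to be read directly. In 1124 expressed genes with a single isoform of 1 exon and at least 500 bases, the 1414 peaks had their centre at a median of 86.6% of the transcript from its 5′ end. Of these peaks, 82.2% lay past the middle of the transcript and 38.2% in its last 10%. The first 10% of the transcript held 4.38% of them.

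Of the 8 genes taken from the study's own text, 7 were expressed, and all 7 had a peak. *Gprk2*, a G protein-coupled receptor kinase gene, had 11.7, 11.3 and 10.3 FPKM in the mutant inputs and 2 peaks at the ends of its 52.6 kb, 1 of 4.49 in the 5′ UTR (chr3R:31405245-31410389) and 1 of 4.95 in the 3′ UTR (chr3R:31457365-31457873). The 5′ peak met a peak on the opposite strand. *dpp*, the BMP ligand gene, had 4 peaks at 4.51 FPKM, with 5.01 in the 3′ UTR, 3.55 in a coding exon and 3.89 and 2.61 in 5′ UTRs. *how*, an RNA-binding protein gene of muscle and tendon, had 4 peaks, of which the 5′ UTR peak stood at 3.91 and the 3 in 3′ UTRs between 1.09 and 1.48.

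*Sam-S*, the S-adenosylmethionine synthetase gene, had 54.1, 57.4 and 55.9 FPKM and a single 3′ UTR peak of 2.56. *PPP1R15*, a phosphatase regulatory subunit, had 3.01 in the 5′ and 2.13 in the 3′ UTR, and *Rheb*, a small GTPase of the TOR pathway, had 1.04 in the 5′ and 1.38 in the 3′ UTR. *Mettl3*, the main mRNA m6A writer, had 4.06, 4.59 and 5.38 FPKM, a 3′ UTR peak of 2.80 and 2 coding exon peaks of 1.06 and 0.93. *Sxl*, the master gene of fly sex determination, whose transcript is a known m6A target in flies, had 6 peaks, from 1.63 to 4.68, all in UTRs.

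**Figure D4:**
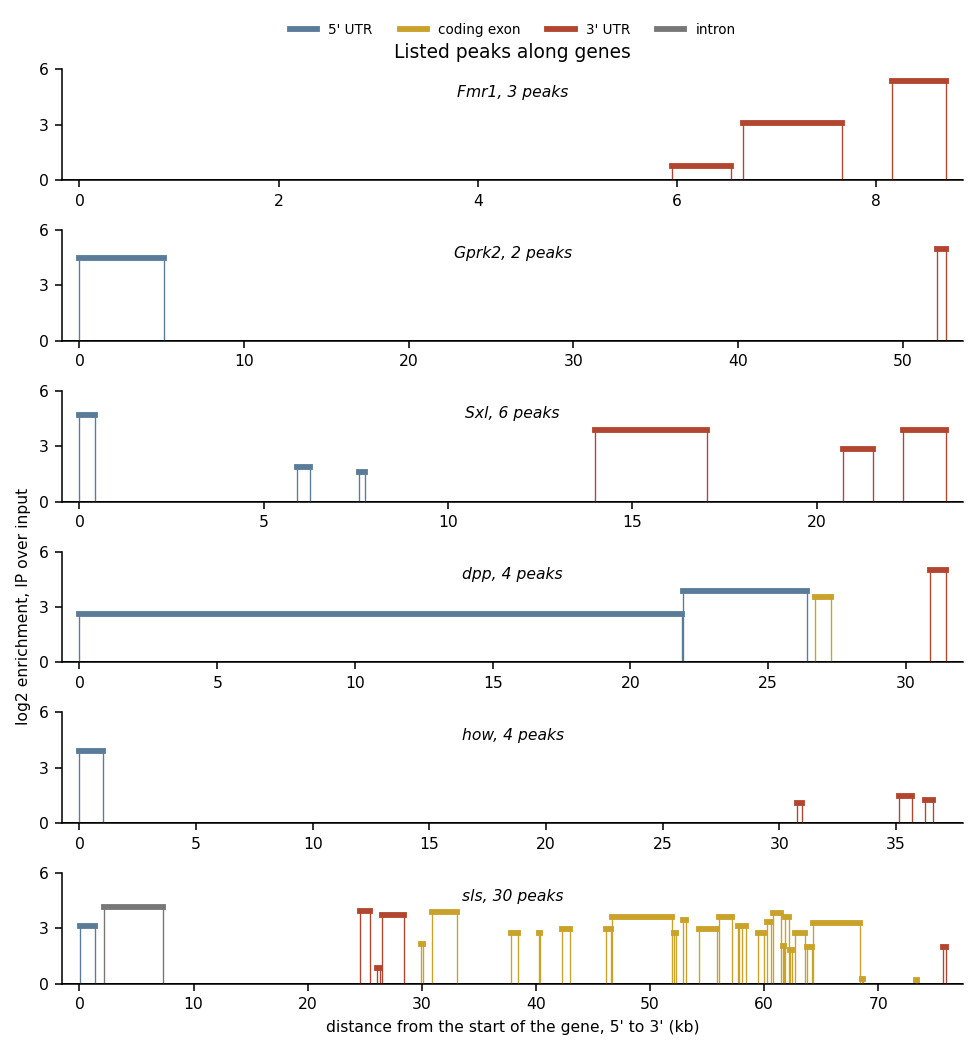
Listed peaks along *Fmr1*, *Gprk2*, *Sxl*, *dpp*, *how* and *sls*, as distance in kb from the start of the gene, 5′ to 3′. Each bar spans a peak from end to end, introns included, at its log2 enrichment of IP over input, and colours give the annotation. *Gprk2* has 2 peaks at its ends, *how* a strong 5′ peak with 3 weaker ones at its 3′ end, and *sls* has 30 peaks, mostly in coding exons.

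Most genes of the m6A machinery had a peak, as did most expressed genes. Of 12 expressed genes for writers, readers and other RNA methyltransferases, 11 had one. The share was 85.0% over all expressed genes and 87.9% over those of 2 to 5 kb. All 11 had a peak in the 3′ UTR, as did 91.0% of all expressed genes with a peak. *Fmr1*, an RNA-binding protein that reads m6A in flies, had the highest, 5.36, with 2 further peaks of 3.09 and 0.77. The nuclear reader *Ythdc1* had 4.21 and the cytoplasmic reader *Ythdf* 3.07. Among the writer subunits, *fl(2)d* had 3.59, *nito* 3.27, *Flacc* 2.24, *Hakai* 2.06, *vir* 1.88 and *Mettl14* 1.68. *CG9666*, the *Mettl5* gene, had 0.43, but other genes are annotated over the same bases, which leaves its assignment uncertain. *CG14906*, the *Mettl4* gene, had 3.61, 3.53 and 3.23 FPKM and no peak.

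Genes of S-adenosylmethionine and methionine metabolism, which supply the methyl donor, had a peak in 8 of 10 cases, beside 85.0% of all expressed genes. *SamDC*, the S-adenosylmethionine decarboxylase gene, had 3.29 and *AhcyL1* 2.88. *AhcyL2* and *Sardh*, the sarcosine dehydrogenase gene, had 9.41 and 2.98 FPKM on average and no peak.

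The 10 genes with the highest enrichment had their strongest peak between 6.78 and 9.32. *CG11458* had 86.8, 89.5 and 90.5 FPKM and a single peak of 9.32 over its whole span (chr3L:20905795-20906331), annotated as 3′ UTR. *Fib* followed with 8.21 (chr2R:23074038-23074695). The translation factor gene *eIF4B* had 7.61, *TTLL3B*, a tubulin glycylase gene, 7.36, *mbl* 7.14 in an intron and *CG13739* 6.78 in a 5′ UTR. The regions of *eIF4B* and *CG13739* spanned 13900 and 30925 bases, against 1651 and 8117 for their longest transcripts. The transposon insertion *FBti0019364* had 7.77, but insertions of a family share sequence, and how the counting placed reads among copies is not known here.

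*CG14742* and *Cog1*, with 7.17 and 7.00, lie on opposite strands of chromosome arm 3R and their peaks cover nearly the same bases (chr3R:12214588-12215659 and chr3R:12214658-12215823). *CG14742* had 2.94, 8.17 and 8.14 FPKM in the mutant inputs, 1 of them far below the others, and *Cog1* 7.67, 7.78 and 7.87 FPKM. Of the 10 genes with the highest enrichment, these 2 were the ones whose strongest peak met an opposite-strand peak.

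The share of genes with a peak differed widely between gene groups, which also differed in length and expression. Among genes of neuronal adhesion and guidance, 37 of 37 had a peak, with a mean of 4.46 peaks, a median length of 37798 bases and a median of 4.42 FPKM. The highest was *robo3*, a receptor for the guidance cue Slit, at 6.44 and 1.72 FPKM, then *Ten-a*, a teneurin, at 5.51. Of genes for ion channels and the synapse, 40 of 40 had a peak, led by *Sh* (5.58, 16 peaks) and the calcium channel gene *cac* (5.52, 7 peaks). The median length of the second group was 22878.5 bases. Of all expressed genes of 20 to 50 kb, the class of both median lengths, 99.2% had a peak, with a mean of 3.93 peaks. A 5′ UTR peak was present in 89.2% of the genes with a peak in the first group and 85.0% in the second. It was present in 28.7% of all expressed genes with a peak, and in 89.2% of those of 20 kb and over.

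The regulatory genes listed mostly had a peak, as did 85.0% of all expressed genes and 96.9% of those of 10 to 20 kb. All 48 expressed genes of developmental signalling had one, led by *dpp* (5.01) and *fz2*, a Wnt receptor gene (4.73, in a region that met a peak on the opposite strand). A 5′ UTR peak was present in 85.4% of the 48, beside 74.2% of all expressed genes with a peak at 10 to 20 kb. All 36 expressed genes for splicing factors and RNA-binding proteins had a peak, with a mean of 5.19, led by *mbl* and the ELAV family gene *fne* (5.86). In the circadian clock list 14 of 15 had a peak, among them the kinase genes *sgg* (6.13, 10 peaks) and *dco* (5.84, 5 peaks). The clock photoreceptor gene *cry* was the exception, with 37.5, 35.1 and 32.7 FPKM and none.

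In the insulin and TOR list 24 of 26 had a peak, led by *rictor* (5.21) and the insulin receptor gene *InR* (4.48, in a region that met a peak on the opposite strand). Both genes without one encode insulin-like peptides, *Ilp3* with 4.46 FPKM and *Ilp5* with 2.78 FPKM. In the sex determination and dosage compensation list 13 of 14 had a peak, led by *fru* (5.24, 13 peaks at 1.55 FPKM) and *Sxl*, while *ix* had none at 4.92 FPKM. Among these, the dosage compensation RNA *lncRNA:roX1* had 7 peaks between 0.25 and 2.33.

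Highly expressed genes of metabolism and muscle mostly had peaks, of lower enrichment in the metabolic lists than over all genes. The median of the highest peak was 2.57 over all expressed genes with a peak. It was 2.20 at 100 FPKM and over, and 2.84 at 5 to 10 kb, where the median length of the sarcomere list fell. Of all expressed genes 85.0% had a peak, of those at 100 FPKM and over 89.6%, and of those of 5 to 10 kb 93.7%. All 13 glycolysis genes had one, led by *Hex-A* (4.04) and *Ald1* (3.95), with a median of the highest peak of 1.83. Of genes for oxidative phosphorylation, 78 of 82 had one, with a median of 1.79, led by *UQCR-14L* (3.77) and *ATPsynepsilonL* (3.61). These had 23.2 and 4.37 FPKM on average, against a median of 189 FPKM in the list. *ND-19* and *ND-23*, subunits of complex I, had 202 and 192 FPKM and no peak. Of sarcomere genes, 32 of 33 had a peak, with a median of 3.34, led by *Msp300* (5.20) and *Zasp52* (4.94). The muscle actin gene *Act57B*, with 1278, 1330 and 1338 FPKM, had none, and reads of the close actin paralogs may be split between them.

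Cytosolic ribosomal protein genes had a peak less often than expressed genes as a whole, with no test made of the difference. Of 93, all expressed, 69 (74.2%) had one, with a median of 1.53 against 2.57 over all expressed genes with a peak. At 100 FPKM and over that median was 2.20. A peak was present in 89.6% of expressed genes at 100 FPKM and over, and in 86.8% of the 219 of these of 1 to 2 kb. The 69 with one had a median of 434 FPKM and a longest transcript of 917 bases, and the 24 without had 495 FPKM and 729.5 bases. The highest was *RpS19b*, a paralog with 16.9 FPKM, at 4.44. Then came *RpLP0-like* at 3.66 and 8.92 FPKM, in a region that met a peak on the opposite strand. *RpLP0-like* is counted in the 93 but encodes a ribosome assembly factor. *RpL41*, with 2498, 2444 and 2417 FPKM, and *RpLP1*, with 942, 917 and 950 FPKM, had no peak.

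Genes of the male reproductive tract mostly had 3′ UTR peaks, as did 91.0% of all expressed genes with a peak. Of spermatocyte and spermatid genes, 48 of 51 had a peak, led by *kmg*, a zinc finger gene of spermatocytes (4.61), and the sperm leucyl aminopeptidase gene *S-Lap4* (4.43). The region of *S-Lap4* spanned 86759 bases, against 2074 for its longest transcript, and met a peak on the opposite strand, so its assignment is uncertain. *swif* and *vis* had 29.6 and 7.22 FPKM on average and no peak, and *swif* lay over a same-strand peak of another gene. Of accessory gland and seminal fluid genes, with a median length of 570 bases, 59 of 70 had one, led by *Sfp33A3* (3.91) and *Sfp65A* (3.87). The peaks of both met a peak on the opposite strand. None of the 59 had one in a 5′ UTR, beside 3.38% of all expressed genes with a peak under 1 kb. *Met75Ca*, with 1865 FPKM, had no peak. Neither had *Acp1*, with 2378 FPKM, which is counted in the 70 but encodes an adult cuticle protein. Immune peptide genes were covered least among the coding groups, 18 of 30, led by *BomT3* (4.97) and *BomT1* (3.04). Their median length was 450.5 bases, and 48.0% of all expressed genes under 0.5 kb had a peak. *BomS6* and *BomS5*, with 524 and 286 FPKM and longest transcripts of 198 and 218 bases, had none.

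Short non-coding RNAs had almost none. None of 31 snRNA genes had a listed peak, including the 15 that were expressed, whose median length was 191 bases. *snRNA:U2:38ABa* had 10.1, 12.2 and 12.2 FPKM in the mutant inputs. The 3 U6 genes averaged 0.872 to 0.957 FPKM, below the minimum, and as near-identical copies they may share reads. Mettl16 methylates U6 in other species, and the paper reports that U6 m6A requires it in flies too. The paper also describes m6A peaks on U6 in its MeRIP-seq, reduced in the mutants, while the peak list used here names no U6 gene. Of 59 expressed snoRNA genes, 1 had a peak, *snoRNA:Me28S-G2703a* (2.78), in a region of 1065 bases, against 91 for the snoRNA itself. These RNAs mostly lack a poly(A) tail and the libraries were made from poly(A) RNA, and the part that played was not tested. Of 581 expressed lncRNA genes, 341 (58.7%) had a peak, led by *lncRNA:CR43848* (5.71), while *lncRNA:CR34335*, with 344, 364 and 369 FPKM, had none.

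By kind of gene, 88.5% of 11607 expressed protein coding genes had a peak, 58.4% of 592 long non-coding or antisense RNAs, 26.9% of 197 other RNAs and pseudogenes and 24.4% of 201 transposon insertions. Among insertions of at least 5 FPKM, *RR48347_transposable_element* had 5.99 and *FBti0019183* 5.11. The share was 85.1% to 86.0% on the arms 2L, 2R, 3L, 3R and X, but 58.8% of 153 genes on the fourth chromosome and 50.0% of 22 on the Y. On the fourth chromosome, 62 of the 153 were transposon insertions, and 76 of its 78 protein coding genes (97.4%) had a peak. On the Y, 10 of 16 protein coding genes had one.

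Among the 10 most expressed genes without a peak, 3 were mitochondrial. *mt:CoIII* had 10071, 10488 and 11590 FPKM, *mt:Cyt-b* 3413 and *mt:ATPase6* 2823 on average, and of 15 expressed mitochondrial genes 5 had a peak, with a median of the highest of 0.93. *mt:ATPase6* lay over a same-strand peak of another gene. *CG7203* had 4206, 4276 and 4300 FPKM. The seminal fluid genes *Sfp87B* and *Mst57Da* had 1721 and 1288 FPKM, and *RpL41*, *Acp1*, *Met75Ca* and *Act57B* complete the 10. *Act57B* and *mt:Cyt-b* had longest transcripts of 1724 and 1137 bases, and those of the other 8 were under 1000 bases.

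Long genes without a peak were often overlapped by another gene. Of the 1887 expressed genes without a peak, 285 (15.1%) lay over a same-strand peak assigned to another gene, and 536 (28.4%) over a peak on either strand. Without those 285, the share of expressed genes with a peak was 87.0%. Of the 10 longest, 6 did so: *CG46244*, *Pif1A*, *stnB*, *CG46464*, *Sik3* and *CG45092*. *Ppr-Y*, a Y-linked gene of 248273 bases at 3.16 FPKM, *sowah* (7.30 FPKM), the homeobox gene *lbl* (1.48 FPKM) and *CG32333* (3.05 FPKM) did not.

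At the other end, 1616 of 8468 genes under 1 FPKM had a peak, 760 of them protein coding and 566 long non-coding or antisense. The 49 genes with a peak that were listed at 0 FPKM in all 3 mutant inputs were led by the transposon insertion *FBti0019569* (5.77), the cell death gene *grim* (5.65, 3 peaks), *FBti0062016* (4.48), *asRNA:CR45909* (4.41) and *asRNA:CR46470* (4.39). The highest peaks of these genes met a peak on the opposite strand, except that of *FBti0062016*.

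Input expression was next compared between genotypes and read by peak class. The mutant inputs entered this comparison, the definition of expressed genes and the calling of peaks, so these are not independent of each other. Over all 13866 genes tested with limma, 22.9% passed an adjusted p of 0.05 as higher and 26.7% as lower in the mutants. Of 10721 expressed genes with a peak, 2612 (24.4%) were higher and 2848 (26.6%) lower. Their median log2 fold change was 0.022. Of 1887 expressed genes without one, 491 (26.0%) were higher and 429 (22.7%) lower, and the median was 0.052. Both classes stood near the background in each direction. The order of the classes turned with the definition of expressed: with at least 1 FPKM over all 6 inputs, 23.7% were higher and 27.4% lower with a peak, against 21.6% and 28.5% without. Changes of more than 1 on the log2 scale were called in 5.33% of all expressed genes, in 4.38% of those with a peak and in 10.7% of those without. Among expressed protein coding genes the shares were 3.80% with a peak and 8.15% without. The difference was not tested.

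The classes by number and place of peaks stood further from the background. Of 1923 genes with 3 or more peaks, 32.5% were higher and 12.4% lower in the mutants, and of 6370 genes with 1 peak, 20.2% were higher and 33.0% lower. Of 3081 genes with a 5′ UTR peak, 34.3% were higher and 12.3% lower, and of 7640 with a peak and none in the 5′ UTR, 20.4% were higher and 32.3% lower. With upper quartile scaling, 58.0% of the calls among genes with a peak were higher, in place of 47.8%, and genes with 1 peak had 26.8% higher and 30.0% lower, with a median of 0.025 in place of -0.041. The median log2 fold change was 0.12 with a 5′ UTR peak and -0.032 with peaks elsewhere (0.18 and 0.033 with upper quartile scaling).

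Length moved with the calls as well. Of all expressed genes under 1 kb, 18.5% were higher and 40.9% lower, and of those of 10 to 20 kb, 39.1% were higher and 9.62% lower. Within genes of 1 to 2 kb, 14.8% of those with a 5′ UTR peak were higher and 30.1% lower, against 17.5% and 35.2% of those with peaks elsewhere. At 5 to 10 kb the shares were 38.9% and 10.9%, against 33.5% and 15.2%. At 20 kb and over they were 34.9% and 6.03% of 829 genes, against 24% and 22% of 100. Under 1 kb, 10% were higher and 55% lower of 60 genes with a 5′ UTR peak, against 14.9% and 47.6% of 1714, so the higher share was the smaller one with a 5′ UTR peak in both classes under 2 kb. At 2 to 5 kb, genes with 2 or more peaks had 24.8% higher and 20.9% lower, and genes with 1 peak 23.6% and 24.6%. The differences between peak classes were smaller within these classes of length than over all genes, and were not tested.

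**Figure D5:**
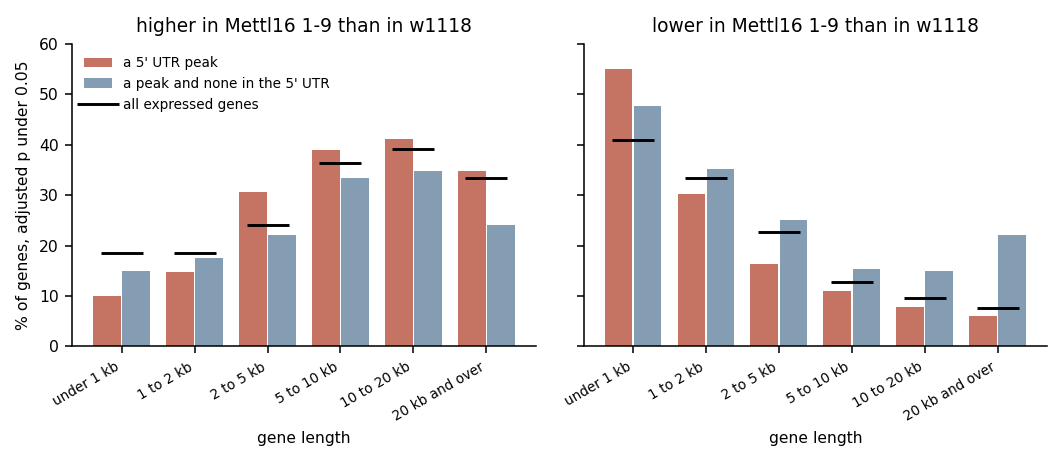
Share of expressed genes called higher (left) or lower (right) in *Mettl16* mutant than in *w1118* inputs, in percent, by genomic span, for genes with a 5′ UTR peak (red), genes with a peak and none in the 5′ UTR (blue) and all expressed genes (black lines). Calls are limma tests with an adjusted p under 0.05. Over all expressed genes the lower share falls with length, from 40.9% under 1 kb to 9.62% at 10 to 20 kb and 7.69% at 20 kb and over. In genes with a peak and none in the 5′ UTR it is 14.9% at 10 to 20 kb and 22% at 20 kb and over.

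Among genes with a peak, the largest changes were in genes with 1 peak in the 3′ UTR. Of the 10721 expressed genes with a peak, 6370 had 1 peak and 58.5% had peaks in the 3′ UTR alone. *Victoria*, a gene of the Turandot stress peptide family, had 57.3, 70.3 and 71.3 FPKM in the mutant inputs, against 0.0744, 0.164 and 0.0839 FPKM in *w1118*, and a peak of 0.65. The groups did not overlap, and the log2 fold change of FPKM + 1 was 5.92 ± 0.093 (SE, limma adjusted p = 3.52e-08). Its relative *TotB* had 48.7, 48.5 and 50.7 FPKM, against 1.45, 0.720 and 0.979 FPKM, and a peak of 2.23. *CG42680*, *CG13946* and *CG11893* also rose, with log2 fold changes of 5.80, 4.52 and 4.51 and peaks of 1.94, 3.36 and 1.53.

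*lectin-37Da*, a galactose-binding lectin gene, had 4.24, 4.49 and 6.79 FPKM in the mutant inputs, against 154, 265 and 237 FPKM in *w1118*, and a peak of 2.48. All mutant values lay below all *w1118* values, and the log2 fold change was -5.14 ± 0.22 (SE, limma adjusted p = 3.77e-06). *CG42464*, *CG42825*, *CG13870* and *tobi*, an alpha-glucosidase gene, also fell, with log2 fold changes of -4.29, -3.94, -3.85 and -3.55 and peaks of 2.45, 2.05, 3.74 and 2.57. *CG13870* had 0.367, 0.338 and 0.592 FPKM in the mutant inputs, under the minimum of 1 FPKM for expressed genes. Of the 10 genes with these largest changes, none had more than 1 peak, and the peaks of *lectin-37Da*, *CG42825* and *tobi* met a peak on the opposite strand.

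Of the genes with the strongest peaks, *CG11458* was higher in the mutants by 0.63 ± 0.076 on the log2 scale, with 86.8, 89.5 and 90.5 FPKM against 56.2, 52.2 and 63.8 FPKM. *TTLL3B* was lower, with 34.1, 36.8 and 36.6 FPKM in mutants, against 62.4, 56.4 and 55.6 FPKM in *w1118*. *how* had 28.8, 28.2 and 29.0 FPKM in mutants, against 23.2, 20.3 and 19.0 FPKM in *w1118*, a log2 fold change of 0.44 ± 0.075. *Gprk2* had a log2 fold change of 0.38 ± 0.070, and *Sam-S*, at -0.13 ± 0.058 (limma adjusted p = 0.0924), did not pass the threshold.

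In the lists, which differ in tissue and length, the cytosolic ribosomal protein genes had 59 of 93 tested higher and 8 lower, the accessory gland genes 5 of 70 higher and 57 lower, and the spermatocyte and spermatid genes 2 of 51 higher and 43 lower, beside 22.9% higher and 26.7% lower of all genes tested. Over the alternatives of this comparison, 42 to 69 of the ribosomal protein genes were higher, 55 to 58 of the accessory gland genes were lower and 41 to 43 of the spermatocyte and spermatid genes were lower. Of 13 m6A machinery genes tested, *Ythdf* was higher and *CG7544* lower.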

How the data were processed

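MeRIP-seq of poly(A) RNA from whole adult males was used for *Mettl16* 1-9 mutants and *w1118*, 3 biological replicates each. The authors trimmed reads with fastp, aligned them with HISAT2, computed FPKM and coverage per base from the input libraries with StringTie, called peaks with exomePeak and annotated them with ANNOVAR. The paper gives the reference for the reads only by a version number and names no build for them, and coordinates are those of the deposited files, written from 1. The deposited peak list gives, for the 3 replicates together, a log2 enrichment with a p-value and FDR. The deposited coverage signal served only to derive depth, as its ratio to FPKM. Authors' comparisons of genes and peaks between genotypes were not used, nor were 9 other per-sample columns of the gene table and 18 of the isoform table.

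Peaks were counted once per region and gene and joined to genes by identifier (Python 3.11.15, pandas 2.3.3, SciPy 1.17.1, NumPy 2.4.6). Length is the genomic span of the gene. Genotypes were compared on log2(FPKM + 1) with limma 3.58.1 with a trend in R 4.3.3, two-sided, over the 13866 genes that averaged 0.5 FPKM or more in 6 inputs. P-values were adjusted by Benjamini-Hochberg, with calls at 0.05. Fold changes on this scale understate changes of low genes.

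Named genes are those the paper names, the 10 with most peaks, the 10 of highest enrichment, the 10 without a peak of highest FPKM and the 10 longest, 2 with and 2 without a peak per list, 3 per frequent combination and 5 at 0 FPKM, the 5 largest changes in each direction and the 5 widest ranges; other list members were named after their values were seen. 1 gene of the highest enrichments is not reported here. Amus, which the paper names, matched no symbol in the files, and *Mettl16* and *Sams* were matched to *CG7544* and *Sam-S*. The 20 lists held 423 entries, of which 6 matched no gene. Members and lists were chosen with earlier results of these data known. *Acp1* and *RpLP0-like* entered the accessory gland and ribosomal protein lists by symbol, and all counts of these lists include them. Kinds of gene came from RefSeq annotation. Figures were drawn with matplotlib 3.10.9.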

Additional observations from a re-analysis of the deposited data

How the results depend on the processing

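With a minimum of 0.5 FPKM for expressed genes, 82.0% had a peak, with medians (with, then without a peak) of 9.87 and 2.45 FPKM and 2436 and 1096.5 bases. With 5 FPKM these were 90.7%, 16.2 and 11.7 FPKM, and 2384.5 and 1375 bases. With peaks of an FDR under 0.05 they were 83.8%, 10.8 and 3.88 FPKM, and 2477 and 1235 bases. With peaks of a log2 enrichment of at least 1, 81.9% had a peak, the median was 4.81 FPKM without one, and lengths were 2502 and 1311.5 bases. With regions listed for 1 gene, the share was 84.2%, and genes without a peak had medians of 4.12 FPKM and 1265 bases. The longest transcript as length gave 1845 and 1052 bases. Chosen after seeing the data, leaving out peaks that met an opposite-strand peak gave 72.1%, 10.9 and 6.19 FPKM, and 2696 and 1483 bases. Protein coding genes alone gave 88.5%, 11.2 and 5.68 FPKM, and 2536 and 1583 bases, and leaving out genes over a same-strand peak of another gene gave 87.0%. Without 1 mutant replicate at a time, genes without a peak had a median of 3.94 to 3.97 FPKM.

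The rhos of peaks per gene with FPKM and length and of top enrichment with both were -0.0416, 0.609, -0.0785 and 0.381 at an FDR under 0.05. Counting genes without a peak as 0 gave 0.129, 0.587, 0.10 and 0.433, which turns the sign of both rhos with FPKM, since genes without a peak were less expressed. Without opposite-strand overlaps the last 3 were 0.603, -0.0802 and 0.380, and merging overlapping peaks gave 0.628 for peaks with length. Genes with 3′ UTR peaks alone and with both UTRs made up 59.0% and 20.4% at an FDR under 0.05, 58.7% and 20.5% with regions listed for 1 gene, and 55.0% and 19.5% without opposite-strand overlaps.

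The counts called between genotypes over all genes, with and without a peak, with 1 and with 3 or more peaks, and with and without a 5′ UTR peak stayed within 1.5 times their values under the alternatives (pseudocount, filter, scaling, replicate block and leaving out a library). Counts by length were not rerun. In the lists, counted after seeing the data, the 59 higher ribosomal protein genes were 69 with upper quartile scaling and 42 without mutant replicate 2, and the 5 higher accessory gland genes were 3 with no filter and without *w1118* replicate 3. With upper quartile scaling, 55.8% of all calls were higher in mutants, in place of 46.1%. Replicates share only a number: the correlations of same-numbered deviations were -0.0363, -0.0608 and -0.0274. With the replicate block, genes with a peak had 2182 higher and 2591 lower, and genes without 450 and 404. Of 123 named genes tested, none changed direction while called. *ELOVL*, *Ilp5*, *cry*, *vis* and *mt:Cyt-b* lost their calls without at least 1 library. The depth of the IP libraries was not analysed here, so a gene without a listed peak cannot be called free of m6A.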
